A study of Ovis aries with 36 samples.

Results

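Of the 27054 genes counted in lamb brain, 86 had a clear level in 3 forebrain regions and a far lower level in 6 of the 9 cerebellum libraries. They were chosen by their measured levels. A gene entered when the lowest of its mean levels in hippocampus, motor cortex and basal ganglia reached 10 CPM (a gene's count times 1000000 over the library total) and was at least 8 times its mean over 6 cerebellum libraries. Those 6 libraries came from lambs A, B, C, E, F and I, and the cerebella of D, G and H were left out of the rule. The forebrain-to-cerebellum contrast is therefore a description here and carries no test.

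RNA was sequenced from 4 brain regions of 9 lambs, giving 36 libraries. Lambs A to E, the Experimental arm of the labels, were delivered preterm and went straight onto the EXTEND extrauterine support system by cannulation, where they stayed until close to the age of the late preterm lambs, and are called supported lambs here. Lambs F and G were late preterm controls delivered at 127 days, and lambs H and I were preterm controls, with necropsy straight after delivery in both control arms. Supported lambs A, B, D and E and preterm lamb H were female, and lambs C, F, G and I were male, so both late preterm lambs were male. Each control arm held only 2 lambs, and 1 library was made per region and lamb.

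Hippocampus, cortex and basal ganglia develop from the telencephalon, the front part of the embryonic neural tube, whereas the cerebellum develops from the hindbrain. Some transcription factors that pattern the telencephalon stay active in its neurons, and cerebellar tissue is dominated by granule neurons of a separate lineage. Genes can therefore be strongly transcribed on 1 side of this boundary and scarcely on the other. The deposited table names genes by Ensembl identifier only, and none of those identifiers matched a symbol in the annotation table used here, so what the 86 genes encode is not stated. For the same reason the labelled tissues could not be checked against known cell type markers. In bulk tissue, fewer cells of a type and less RNA per cell cannot be told apart.

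Library totals ran from 8782652 to 18153142 counts, and all libraries of lambs A, H and I were in the shallower group. Libraries were also compared with the mean profile of every region. All 9 motor cortex and all 9 cerebellum libraries were most like their own region. The hippocampus libraries of lambs B and E were most like basal ganglia, and those of G, H and I most like motor cortex. The basal ganglia libraries of lambs A, F and G were most like hippocampus, and that of lamb I most like motor cortex. Results for hippocampus and basal ganglia rest partly on these libraries. How the pieces of tissue were cut was not tested.

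The 86 genes covered a wide range of levels. Mean forebrain level ran from 12 to 925 CPM with a median of 54 CPM, and 24 genes reached 100 CPM. The 10 most abundant genes held 50.9% of the group's summed level, and all 86 together held 1.01% of forebrain counts. In the 6 cerebellum libraries of the rule the gene means ran from 0.0112 to 92 CPM with a median of 2.28 CPM, and 20 genes lay under 1 CPM. The ratio of the lowest forebrain region to cerebellum ran from 8.11 to 1311 with a median of 14.6. It reached 16 for 38 genes and 100 for 7 genes. Near absence is therefore relative to the forebrain level, since 66 genes had a cerebellum mean of 1 CPM or more.

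The most abundant gene was ENSOARG00000019783. It measured 448 to 966 CPM in hippocampus (median 712), 734 to 1456 CPM in motor cortex (median 1303) and 324 to 1509 CPM in basal ganglia (mean 818). In the 6 cerebellum libraries it measured 72.9 to 109 CPM. Its cerebellum mean of 92 CPM was the highest of the 86 genes, and its ranges in forebrain and in these libraries did not overlap. ENSOARG00000010603 was second, with 779 to 1938 CPM in motor cortex and 8.39 to 26.4 CPM in the 6 cerebellum libraries.

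The gene with the largest ratio was ENSOARG00000017804. Its motor cortex level was 18.1 to 34.8 CPM, and 5 of the 6 cerebellum libraries held no count of it. A single count in the sixth, lamb F, set its ratio of 1311, for which the exact Poisson 95% interval, covering counting error only, is 235 to 51791. ENSOARG00000011770 had a ratio of 343 on 6 cerebellum counts, with 25.2 to 70.7 CPM in motor cortex. Both genes were low in some forebrain libraries too. ENSOARG00000017804 measured 0.122 CPM in the basal ganglia of lamb F, and ENSOARG00000011770 measured 0.182 CPM there.

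The thresholds cut through a continuous range. Just inside the ratio limit were ENSOARG00000019783 at 8.11 and ENSOARG00000013484 at 8.14, and just outside were ENSOARG00000010088 at 7.95 and ENSOARG00000016595 at 7.98. Just inside the level limit were ENSOARG00000007401 at 10.1 CPM and ENSOARG00000006096 at 10.2 CPM in their lowest forebrain region. ENSOARG00000012340 at 9.84 CPM and ENSOARG00000003097 at 9.92 CPM fell just outside. The mirrored rule, cerebellum over forebrain with the same limits, found 64 genes, which serve below as a reference for cerebellar identity.

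**Figure D1:**
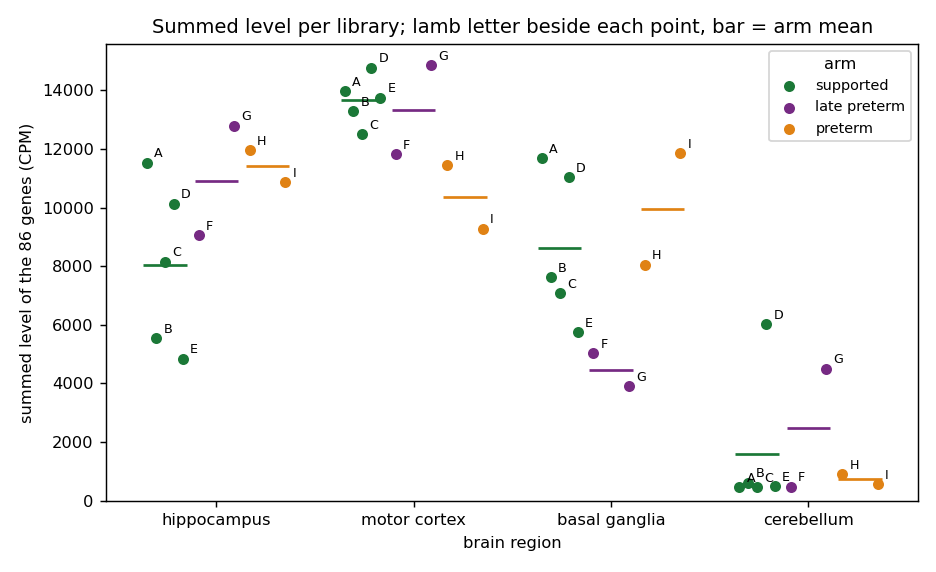
Summed level of the 86 genes in each library (CPM, vertical axis) by region, with each point a library labelled by lamb and coloured by arm, and each bar an arm mean. Motor cortex libraries lie between 9277 and 14856 CPM, the 6 cerebellum libraries of the rule between 458 and 618 CPM, and the cerebellum libraries of lambs D and G at 6019 and 4497 CPM.

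The summed level of the 86 genes was most even in motor cortex. It ran from 9277 to 14856 CPM there (median 13291, 9 libraries), from 4851 to 12791 CPM in hippocampus (median 10129) and from 3909 to 11847 CPM in basal ganglia (median 7616). The hippocampus libraries of lambs B and E were low, at 5544 and 4851 CPM, and so were the basal ganglia libraries of lambs F and G, at 5032 and 3909 CPM. These are 4 of the libraries that were most like another region. The rest of those libraries were not low, at 10868 to 12791 CPM, each above the median of its region. The basal ganglia library of lamb E, most like its own region, was at 5746 CPM. The coefficient of variation over the 9 lambs had a median over the 86 genes of 50.4% in hippocampus, 22.6% in motor cortex and 67.4% in basal ganglia. Over all genes with at least 10 CPM in the region the medians were 16.9%, 14.7% and 19.6%.

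Low libraries were low across much of the group. In hippocampus, lamb E had the lowest level of 40 of the 86 genes and lamb B of 26. In basal ganglia, lamb G was lowest for 30 genes and lamb F for 22. Lambs B and D were lowest there for 12 and 10 genes, but their summed levels, 7616 and 11037 CPM, were not low. Lamb D was also highest in basal ganglia for 24 genes. The hippocampus libraries of lambs E and B held 35 and 30 genes under 25% of their own forebrain mean. The basal ganglia libraries of lambs G and F held 36 and 32, and those of lambs B and D held 18 and 16. In the hippocampus of lamb E 8 genes, and in the basal ganglia of lambs F and G 10 and 9 genes, were no higher than in the highest of the 6 cerebellum libraries. In motor cortex no more than 1 gene per library lay under 25%.

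Most genes moved together from library to library. Each gene's log2(CPM + 1), centred within region, was correlated with the mean of the other 85 genes over the 27 forebrain libraries, which share lambs and total counts. The median correlation was 0.70, with 29 genes above 0.8, 28 below 0.5 and 12 below 0. No such value is given for other genes, so moving together is not shown to be particular to this group. ENSOARG00000016129, at -0.61, and ENSOARG00000007649, at -0.50, had the lowest values. ENSOARG00000007649 measured 341 and 364 CPM in the hippocampus of lambs B and E, and 386 and 276 CPM in the basal ganglia of lambs F and G. It was thus high in the very libraries where the summed level was low, while in motor cortex it stayed between 42.1 and 72.3 CPM.

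**Figure D2:**
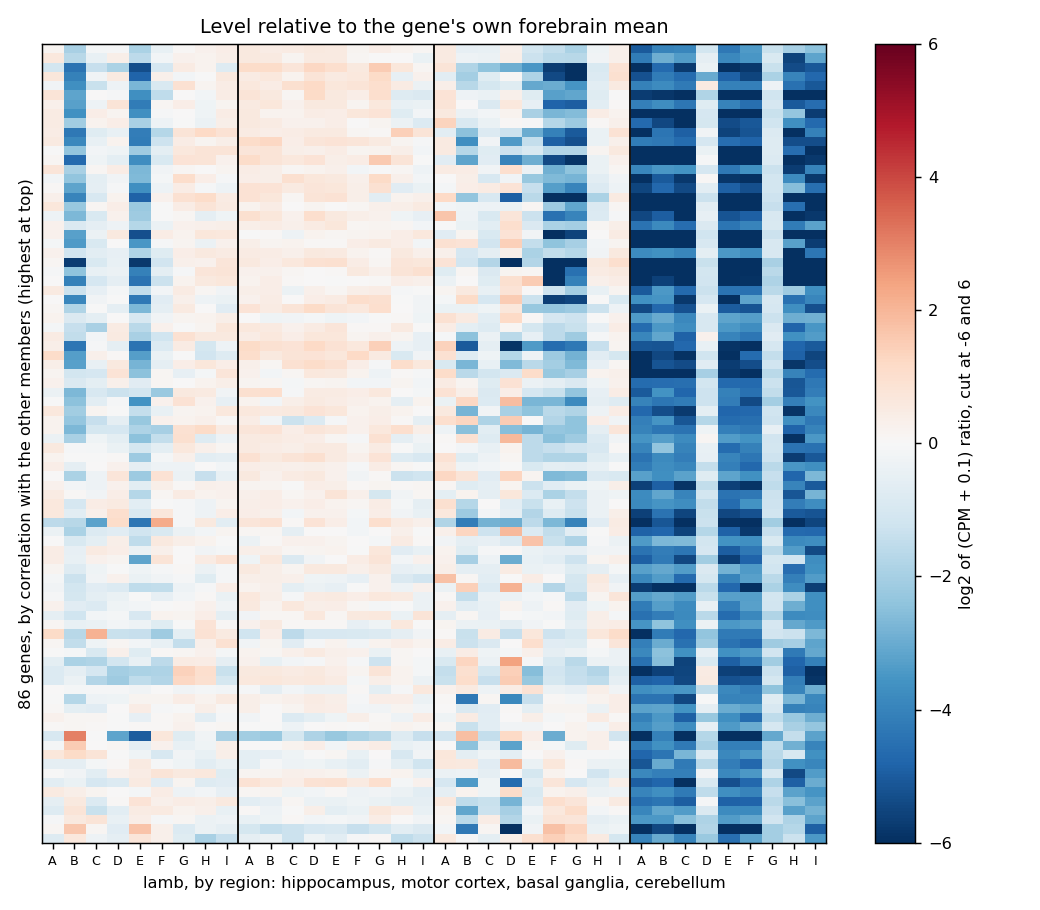
Level of each of the 86 genes (rows, ordered by correlation with the other genes) in each of the 36 libraries (columns, grouped by region) as the log2 ratio of CPM + 0.1 to the gene's own forebrain mean + 0.1, limited to 6 in either direction. The cerebellum columns are low except those of lambs D and G, and the low hippocampus columns of lambs B and E and basal ganglia columns of lambs F and G stand out within forebrain.

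Within forebrain, levels tended to be highest in motor cortex. Of the 86 genes, 61 had their highest region mean in motor cortex, 13 in hippocampus and 12 in basal ganglia, and 51 had their lowest in basal ganglia. The highest region mean was 1.04 to 4.47 times the lowest (median 1.6), and 23 genes reached 2 times. The 3 regions were compared over all 27 forebrain libraries with lamb as a block, using edgeR's quasi-likelihood test at an adjusted p under 0.05 over all tested genes. The rule set a floor on these same region means, so the comparisons are not independent of how the genes were chosen and are given as a description.

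Motor cortex and basal ganglia differed in 26 of the 86 genes, of which 25 were higher in motor cortex and 1 was lower. Among all 15890 genes tested, 14.2% were called in either direction and 7.69% as higher in motor cortex. The median log2 fold change was 0.72 over the 86 genes and -0.01 over all genes, and 18 called genes changed at least 2-fold. At least 8 of 9 lambs had the higher level in motor cortex for 28 of the 86 genes, against 7.69% of all genes, and 9 of 9 did for 3, against 1.95%. Leaving out lamb B, C, D, E, F or G gave between 11 and 16 calls. For runs that left out a lamb, here and below, the share of all genes called is not given. Those counts thus do not show how the 86 genes moved relative to all genes. Without the lamb block 4 of the 86 were called, against 6.16% of all genes. With libraries most like another region left out 42 were called, against 21.8%.

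The following genes of this comparison were chosen after their values were seen, because no called gene had regions that did not overlap. ENSOARG00000019239 measured 34.4 to 133 CPM in motor cortex (median 89) and 0.723 to 128 CPM in basal ganglia (median 4.63). It was higher in motor cortex in 7 of 9 lambs, and the log2 fold change was 2.94 (SE 0.85, adjusted p = 0.0291 by edgeR). ENSOARG00000003929 measured 34.5 to 106 CPM against 0.493 to 42.4 CPM, and was higher in 8 of 9 lambs with a log2 difference of 2.89 (SE 0.69, adjusted p = 0.0131 by edgeR). For both genes the regions overlapped through the basal ganglia of lambs A or I.

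ENSOARG00000016129 was the gene that was lower in motor cortex. It measured 8.53 to 25.9 CPM there (median 16.9) and 11.8 to 65.5 CPM in basal ganglia (median 35.3). It was higher in motor cortex in 0 of 9 lambs, and the log2 fold change was -1.01 (SE 0.26, adjusted p = 0.0177 by edgeR). The 2 ranges overlapped between lambs, but every lamb had the same direction.

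The other pairs of forebrain regions gave no call among the 86 genes. Between motor cortex and hippocampus 0 were called by edgeR, where 0.308% of all genes were. At an unadjusted p under 0.05 there were 22 of the 86, against 13.1% of all genes, and DESeq2 called 4, against 2.42%. The median log2 fold change was 0.47 over the 86 genes. Between basal ganglia and hippocampus 0 were called, against 0.00629% of all genes. There 10 of the 86 had an unadjusted p under 0.05, against 11.6%, and DESeq2 called 0, against 0.614%.

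**Figure D3:**
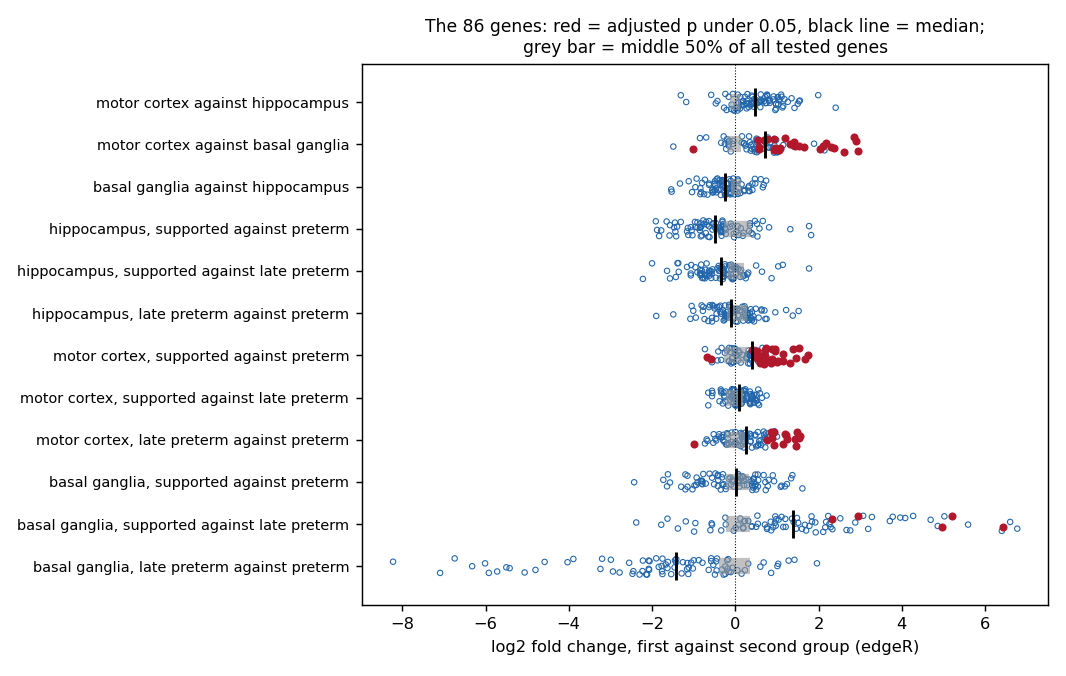
Log2 fold changes of the 86 genes (points) in each comparison, from edgeR, with genes called at an adjusted p under 0.05 in red, a black line at the median and a grey bar over the middle 50% of all tested genes. Calls stand in motor cortex against basal ganglia (26), motor cortex supported against preterm (32), motor cortex late preterm against preterm (15) and basal ganglia supported against late preterm (5).

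The arms were compared within each region to ask whether lambs on extrauterine support differed from either control arm. The rule did not use the arm labels, but its region means pooled the 5 supported lambs with the 2 lambs of each control arm. A gene low in a control arm could thus still enter. ENSOARG00000004940 did, with a basal ganglia mean of 0.866 CPM in late preterm and 76.7 CPM in supported lambs. The arm comparisons are therefore not fully independent of how the genes were chosen. In each of them, the share of the 86 genes set against all genes is a description. In motor cortex, 32 of the 86 genes were called for supported against preterm lambs. Supported lambs had 30 of them at a higher level and 2 at a lower level. Among all 16173 genes tested, 12.2% were called and 6.46% were called as higher. The median log2 fold change was 0.40 over the 86 genes and 0.00 over all genes, and 10 called genes changed at least 2-fold. All 5 supported lambs lay above both preterm lambs for 36 of the 86 genes, against 13.9% of all genes.

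Depth moved with these arms, because both preterm lambs and only 1 of the 5 supported lambs, A, were shallow. With depth group in the model 8 of the 86 genes were called, against 1.06% of all genes. All 8 were higher in supported lambs, so both lower calls were lost, and the median log2 fold change was 0.40. Shallow supported lamb A lay above lambs H and I, which are shallow too, for 53 of the 86 genes, against 33.5% of all genes. Without lamb I, 10 of the 86 genes were called.

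ENSOARG00000013484 had the largest rise. Its motor cortex level was 36.4 and 38 CPM in preterm lambs H and I and 131, 105, 124, 133 and 107 CPM in supported lambs A to E. The arms did not overlap, and late preterm lambs F and G lay between them at 75.2 and 93.1 CPM. The log2 fold change of supported against preterm was 1.74 (SE 0.15, adjusted p = 0.000258 by edgeR).

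ENSOARG00000017677 followed, with 54.5 and 47.9 CPM in preterm lambs H and I and 175, 141, 161, 182 and 135 CPM in supported lambs A to E. Its late preterm levels, 115 and 165 CPM, were also above both preterm lambs. The log2 fold change of supported against preterm was 1.68 (SE 0.18, adjusted p = 0.000694 by edgeR). This gene and ENSOARG00000013484 kept their calls under each alternative run, a depth term included.

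The 2 genes that fell were ENSOARG00000017804 and ENSOARG00000019199. ENSOARG00000017804 measured 30.4 and 34.8 CPM in preterm lambs and 18.1 to 21.3 CPM in supported lambs. By edgeR its log2 fold change was -0.67 (SE 0.13, adjusted p = 0.00782). ENSOARG00000019199 measured 356 and 226 CPM in preterm lambs H and I and 176 to 197 CPM in supported lambs. By edgeR its log2 fold change was -0.59 (SE 0.15, adjusted p = 0.0275). Neither gene's arms overlapped. For ENSOARG00000019199 the change rested on lamb H, since without it the log2 fold change was -0.20 (edgeR adjusted p = 0.347). For ENSOARG00000017804 the log2 fold change was -0.59 without lamb I (edgeR adjusted p = 0.0852) and -0.58 with depth group in the model (edgeR adjusted p = 0.194). With depth group, that of ENSOARG00000019199 was -0.61 (edgeR adjusted p = 0.258).

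Late preterm lambs also differed from preterm lambs in motor cortex, in 15 of the 86 genes, 14 higher and 1 lower. Among all genes tested 2.58% were called and 1.56% as higher. This comparison shares its preterm lambs with the preceding one, so the 2 are not independent. With depth group in the model 0 genes were called, and 0% of all genes. Both preterm lambs were in the shallower group and neither late preterm lamb was, so among these lambs depth and arm cannot be told apart. The depth term rested on supported lamb A against supported lambs B to E. Without lamb G or without lamb H 0 of the 86 were called. Without lamb A 9 genes were called, and without lamb I 7.

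ENSOARG00000014157 measured 49.5 and 45.6 CPM in preterm lambs H and I and 110 and 166 CPM in late preterm lambs F and G. By edgeR the log2 fold change was 1.56 (SE 0.30, adjusted p = 0.0295). Supported lambs lay at 89.1 to 187 CPM. ENSOARG00000019239 measured 39.3 and 34.4 CPM in preterm lambs and 75.7 and 133 CPM in late preterm lambs, and its log2 fold change was 1.52 (SE 0.24, adjusted p = 0.0171 by edgeR). ENSOARG00000019199 was the gene that fell, from 356 and 226 CPM to 147 and 139 CPM (SE of the log2 fold change 0.19, edgeR adjusted p = 0.0258). The 2 arms did not overlap for any of these 3 genes.

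Between supported and late preterm motor cortex 0 of the 86 genes were called by edgeR, and 0% of all genes. At an unadjusted p under 0.05 there were 23 of the 86, against 16.5% of all genes, and DESeq2 called 3, against 4.26%. A p that misses the threshold does not show that the arms had equal levels.

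**Figure D4:**
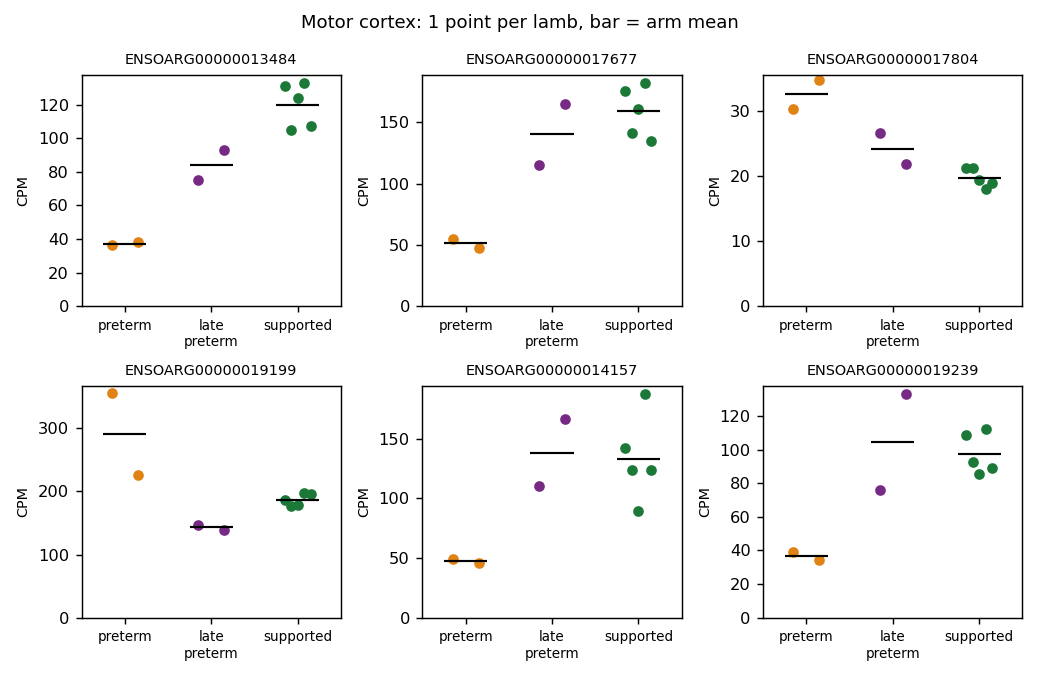
Motor cortex level (CPM, vertical axis) of the genes named in the arm comparisons, with each point a lamb, each column an arm (5 supported, 2 late preterm, 2 preterm lambs) and each bar the arm mean. ENSOARG00000013484 shows preterm lambs at 36.4 and 38 CPM below all supported lambs at 105 to 133 CPM.

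In basal ganglia, 5 of the 86 genes were higher in supported than in late preterm lambs and 0 were lower. Among all 16679 genes tested 0.288% were called and 0.0839% as higher. The median log2 fold change was 1.38 over the 86 genes and 0.02 over all genes, and those of the 5 genes ran from 2.33 to 6.42. DESeq2 called 37 of the 86, against 5.69% of all genes. Both late preterm basal ganglia libraries were among those most like hippocampus, and both late preterm lambs were male. With sex in the model 0 of the 86 were called, and 0% of all genes. With depth group 2 were called, against 0.0839%. Leaving out lamb B, F, G, H or I in turn also gave 0, and leaving out lamb A, C or D gave 2, 11 and 3.

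ENSOARG00000004940 measured 48.9, 88.6, 41.2, 137 and 68 CPM in supported lambs A to E and 0.182 and 1.55 CPM in late preterm lambs F and G. The preterm lambs, at 80.6 and 111 CPM, lay within the supported range. The log2 fold change of supported against late preterm was 6.42 (SE 0.85, adjusted p = 0.0331 by edgeR). The same gene measured 88 and 90.5 CPM in the motor cortex of lambs F and G and 107 and 91.7 CPM in their hippocampus, so among the forebrain regions of these lambs basal ganglia alone was low.

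ENSOARG00000017804 measured 10.8, 19.4, 9.63, 20.3 and 19.4 CPM in supported basal ganglia and 0.122 and 0.705 CPM in late preterm basal ganglia. Its log2 fold change was 5.21 (SE 0.63, adjusted p = 0.028 by edgeR). The supported and late preterm lambs did not overlap, and preterm lambs H and I lay above both arms at 25.2 and 27.1 CPM.

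Late preterm basal ganglia also lay below preterm basal ganglia for most of the group, without passing the test. Both late preterm libraries were below both preterm libraries for 68 of the 86 genes, against 36.2% of all genes, and the median log2 fold change was -1.44 over the 86 genes. By edgeR 0 were called, where 0.012% of all genes were. At an unadjusted p under 0.05 there were 41 of the 86, against 16.3% of all genes, and DESeq2 called 24, against 5.26%. Between supported and preterm basal ganglia 0 were called, and 0% of all genes. There 4 of the 86 had an unadjusted p under 0.05, against 12.2%, DESeq2 called 2, against 3.2%, and the median log2 fold change was 0.01.

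Hippocampus gave no call among the 86 genes in any arm comparison by edgeR. For supported against preterm lambs 2.52% of all genes were called, 7 of the 86 had an unadjusted p under 0.05 against 24.5% of all genes, and DESeq2 called 1 against 12.9%. The median log2 fold change was -0.49 over the 86 genes, with 66 below 0, and the supported hippocampus libraries of lambs B and E were the low ones described above. For supported against late preterm lambs 0% of all genes were called, 1 of the 86 had an unadjusted p under 0.05 against 4.86%, and DESeq2 called 0 against 0.116%. For late preterm against preterm lambs 0% of all genes were called, 3 of the 86 had an unadjusted p under 0.05 against 8.47%, and DESeq2 called 0 against 1.2%.

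Whether the change from preterm to supported differed among the 3 forebrain regions was tested directly. By edgeR 0 of the 86 genes were called, and 0% of all genes. At an unadjusted p under 0.05 there were 14 of the 86, against 8.56% of all genes, and DESeq2 called 0, against 0.132%. The calls in motor cortex are thus not shown to be particular to motor cortex.

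**Figure D5:**
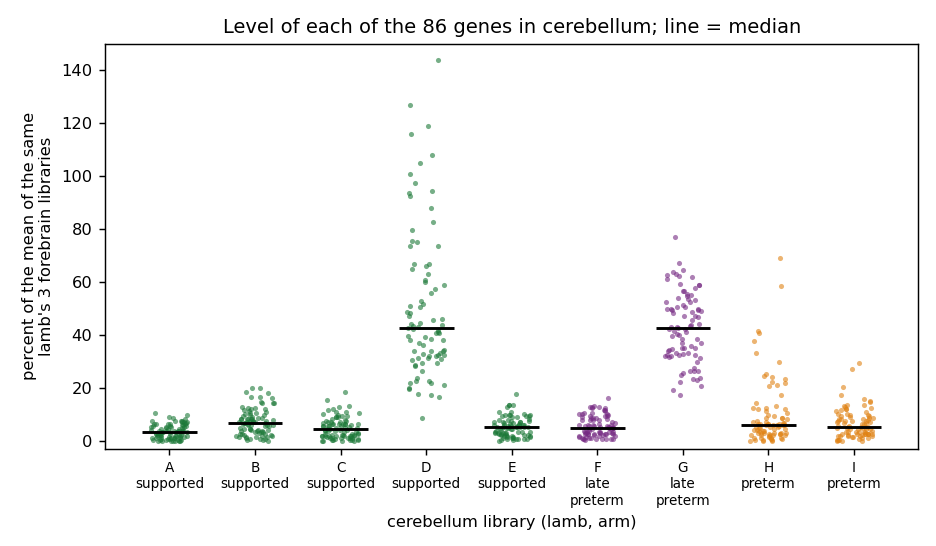
Level of each of the 86 genes in each cerebellum library as a percent of the mean of the same lamb's 3 forebrain libraries (vertical axis), with a point per gene and a line at the median. Lambs D and G have medians of 42.4% and 42.7%, lamb H one of 5.75%, and the 6 lambs of the rule 3.27% to 6.59%.

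The cerebellum libraries that the rule left out did not all lack these genes. The summed level of the 86 genes was 6019 CPM in lamb D, 4497 CPM for lamb G and 898 CPM for lamb H, against 458 to 618 CPM in the other 6. As a percent of the mean of the same lamb's 3 forebrain libraries, the median gene stood at 42.4% for lamb D (range 8.7% to 144%), at 42.7% for lamb G (17.1% to 77%) and at 5.75% for lamb H (0% to 69.1%). The low mean over the cerebella of lambs A, B, C, E, F and I was set by the rule and is no finding. For lambs D and G the data go against the description as nearly absent. For lamb H the median gene lay within the medians of the 6 libraries, 3.27% to 6.59%, though single genes stood far higher. These levels are CPM without the TMM factor. Over 15229 genes, this percent had a median of 67.7% for lamb H. The lambs of the rule had 98.2% to 109%. Genes in general thus read lower in the cerebellum library of lamb H, and its 5.75% is not on an equal scale with the 6. These 3 libraries were set apart with their values known, so the differences carry no test.

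In lambs D and G all 86 genes were above the highest of the 6 cerebellum libraries, where 20.9% and 19.4% of the 15229 genes with a mean of at least 1 CPM were. The 86 genes were chosen for low levels in those 6 libraries. The share of all genes is therefore not an equal reference and is given as a description. At least 50% of the lamb's own forebrain mean was reached by 32 genes in lamb D and by 26 in lamb G. In lamb D, ENSOARG00000009178 stood highest, with 44.9 CPM in cerebellum against 49.7 CPM in hippocampus, 37.5 CPM in motor cortex and 6.68 CPM in basal ganglia. ENSOARG00000014590 stood lowest, with 47.5 CPM against 668 CPM in the lamb's motor cortex. In lamb G, ENSOARG00000010861 stood highest, at 77% of the forebrain mean, and ENSOARG00000015403 lowest, at 17.1%.

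The mirror genes were lower in all 3 libraries by the median. They were chosen for high levels in the 6 libraries of the rule. A lower level in D, G or H is therefore not independent of that choice and carries no test. The 64 genes of the mirrored rule summed to 7130 CPM in lamb D and 7159 CPM in lamb G, against 8461 to 15495 CPM in the 6 libraries that chose them and 222 to 1628 CPM in forebrain. They summed to 10323 CPM in lamb H, within the range of the 6. The median mirror gene stood at 62.7% of the 6-library mean in lamb D, 63.9% for lamb G and 28% for lamb H. In the 6 libraries, each of which is part of that mean, it stood at 80.7% to 108%. In lambs D, G and H, 34, 29 and 46 of the 64 lay below the lowest of the 6. Each of the 6, set against the other 5, had 3 to 32 such genes, with 32 in lamb I. By this count lambs D and G were thus close to lamb I. For lamb H, the 28% and the 46 genes are not on an equal scale, because genes in general read lower in that library. Across the 86 genes, the cerebellum of lamb D correlated at 0.93 with motor cortex of the same lamb and at 0.76 with the mean of the 6 cerebellum libraries, on log2(CPM + 1). Its correlations with the same lamb's hippocampus and basal ganglia were 0.83 and 0.59. That of lamb G correlated at 0.97 with its own hippocampus, 0.94 with its motor cortex, 0.57 with its basal ganglia and 0.82 with the 6. In the 6 lambs of the rule, cerebellum correlated at 0.72 to 0.78 with the lamb's own hippocampus, 0.73 to 0.80 with motor cortex and 0.64 to 0.83 with basal ganglia. Likeness to forebrain in D and G was thus higher for hippocampus and motor cortex and lower for basal ganglia. Those 6 libraries correlated at 0.92 to 0.97 with the mean of the others. Over all genes the cerebellum libraries of D and G were still most like cerebellum, but less closely than the 6. Their correlations were 0.50 and 0.61, against 0.78 to 0.87 in the 6 and 0.21 in lamb H. Whether forebrain tissue or RNA was present in them was not tested.

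In lamb H, 38 of the 86 genes were above the highest of the 6 libraries, where 28.5% of all genes were. There 19 were below the lowest, where 53.3% of all genes were. Because the 86 genes were chosen for low levels in those 6 libraries, neither share of all genes is an equal reference. Each of the 6, set against the other 5, had 3 to 33 of the 86 above and 2 to 26 below. Over the 15229 genes these counts were 1287 to 5448 above and 1611 to 3854 below. The library of lamb H was the shallowest, at 8782652 counts, with a TMM factor of 0.759. In it 3869 of the 15229 genes differed at least 4-fold from the 6 libraries, against 313 in lamb D and 277 in lamb G. Genes whose highest forebrain region was hippocampus stood at a median of 25.1% of the lamb's forebrain mean (13 genes, 10 above the 6 libraries). Genes highest in motor cortex stood at 4.39% (61 genes, 23 above and 17 below). ENSOARG00000015166 stood highest, with 6.49 CPM against 6.52 to 12.2 CPM in the lamb's forebrain libraries, and ENSOARG00000001458 and ENSOARG00000007401 had no count.

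The genes that stood high were not the same in the 3 libraries by rank. The rank correlation of the 86 percents was 0.17 between lambs D and G, -0.15 between D and H and -0.31 between G and H. Lambs D, G and H belonged to the supported, late preterm and preterm arms, so each arm held 1 such library. With all 9 cerebellum libraries in the rule, 9 genes would have been chosen.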

How the data were processed

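The members and lists were chosen with earlier results of these data known. The authors deposited raw counts per gene. Per the labels' design text, SeqKit checked the reads, fastp trimmed them and STAR aligned them (Ensembl release 107, sheep), and its unstranded gene counts were combined. The submitters' processing notes name fastp and STAR too. Versions of these tools and the assembly: not given in the sources used here. Reads of overlapping or antisense genes cannot be told apart. Of 27054 identifiers, 0 matched the 35057 genes of the ARS-UI_Ramb_v3.0 table from RefSeq, so the planned marker lists could not be applied.

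CPM used column totals (8782652 to 18153142 counts). Tests used edgeR 4.0.16 (R 4.3.3) with quasi-likelihood fits, TMM factors, filterByExpr and p-values adjusted by Benjamini-Hochberg across every gene tested (threshold 0.05). Standard errors were the absolute log2 fold change over the square root of F. Regions were compared with lamb as a block, since a letter marks 1 animal. Deviations of the same lamb's libraries correlated at 0.15 to 0.24 on average. Arms were compared within region, and with 1 library per lamb p-values measure the spread between lambs. DESeq2 1.42.0, other normalizations and filters, depth, sex and leaving out each lamb were alternatives. No pair of libraries within a group looked like a copy (chi-square per degree of freedom at least 8.17). The fits were tested on simulated data. Named genes were the 2 most abundant, the extremes and neighbours of the thresholds, per comparison the called genes with the largest change and no overlap (at most 2 per direction), and the extremes of the cerebella of D, G and H. Genes chosen after their values were seen are named as such, and ENSOARG00000007649 is a further one.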

Additional observations from a re-analysis of the deposited data

Results flagged for a closer look

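Among the 5 supported lambs, the summed level of the 86 genes in cerebellum was 6019 CPM in lamb D, and the median of the 5 was 488 CPM. The gap from lamb D to the other 4 exceeded Dixon's 95% critical value. The 86 genes were chosen for low levels in those other 4 libraries, and lamb D was left out with its value known. The gap is therefore not independent of the choice of genes and carries no test. Of 13 groups of values looked at this way, chance gives about 1 in 20.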

How the results depend on the processing

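With all 9 cerebellum libraries in the rule 9 genes were chosen, and with 16 times in place of 8 times 38 were. Motor cortex against basal ganglia gave 26 calls among the 86 genes with lamb as a block, 4 without the block, 2 with all 36 libraries, 42 with only libraries most like their own region, and 11 to 32 leaving out 1 lamb at a time. Motor cortex against hippocampus gave 0, against 4 by DESeq2, 2 with only own-region libraries and 0 to 1 leaving out 1 lamb (1 without lamb I). In motor cortex, supported against preterm gave 32, with 8 under a depth term and 10 to 34 leaving out 1 lamb; late preterm against preterm gave 15, with 0 under a depth term and 0 to 22 leaving out 1 lamb; supported against late preterm gave 0, with 3 by DESeq2 and 0 to 1 leaving out 1 lamb (1 without lamb F). In basal ganglia, supported against late preterm gave 5, with 37 by DESeq2, 2 under a depth term, 9 with no filter on low counts, 0 with sex as a covariate and 0 to 11 leaving out 1 lamb. Late preterm against preterm there gave 0, with 24 by DESeq2, 4 with no filter and 0 to 2 leaving out 1 lamb (2 without lamb C), and supported against preterm gave 0, with 2 by DESeq2. In hippocampus, supported against preterm gave 0, with 1 by DESeq2. The block changed no other call count beyond 1.5 times. Other counts stayed within 1.5 times of the value reported in 163 of the 203 alternatives run. For single named genes 102 alternatives kept the call, 31 lost it with the same direction and 0 reversed. Where a count moved, the cause was not tested. Arms of 2 lambs limit the precision, and a lone lamb left by an omission was assumed to vary like the other arms.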
